A study of Mus musculus with 4 samples.

Results

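The matrix metalloproteinases Mmp2, Mmp3, Mmp8, Mmp9, Mmp12, Mmp13 and Mmp14, the related membrane protease Adam8, and the tissue inhibitors of metalloproteinases Timp1 and Timp3 were followed in white fat of mice given a β3-adrenergic agonist. The members were the genes of this list that stood as the single symbol of a probe set in the array's annotation. All 10 were found, on 14 probe sets, among 8251 genes measured. The 10 were selected on the changes in intensity already seen between these same arrays, so those changes are described here and not tested.

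RNA was pooled from the epididymal fat pad of male C57 BL6 mice, 3 to 4 months old. The control pool was compared with pools from mice given CL 316243, an agonist selective for the β3-adrenergic receptor, which fat cells carry. The dose was 3 nmol/hr and lasted 1, 3 or 6 days. The sources used here do not say how the control mice were treated or how many mice went into each pool, and 2 sample titles write the compound as CL 316234. Each group was 1 array, so there are no replicates, no p-values are given, and the number of arrays limits the precision.

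Matrix metalloproteinases are zinc enzymes that cut collagens, gelatin, elastin and other proteins outside the cell, and most are made as inactive precursors. TIMPs bind the active enzymes and block them. In fat tissue, stromal cells, blood vessels and leukocytes all make members of this system, and turnover of the matrix goes along with growth and shrinkage of fat cells. ADAM8 is a membrane-anchored protease that was first described in macrophages.

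Values are probe set intensities after scaling of each array, and a value at or below 173 units, the 40th percentile, was treated as not measured above the floor. A gene was counted as higher or lower where 2 arrays differed at least 2-fold after values were raised to that floor. Where the dimmer of the pair lay at the floor, the fold is a lower bound, written as at least. Pairs of probe sets of the same gene differed over 735 genes with a log2 error of 0.32 in the day 1 change from control, 0.26 in that of day 3 and 0.25 in that of day 6. Both probe sets of a pair had to be above the floor on every array, so the error does not describe values near the floor. This error holds no differences between mice or pools. Each of the 10 measured fat cell markers passed the floor somewhere, and Adipoq, which encodes adiponectin, read 52042 in control and 25374, 42596 and 55274 on days 1, 3 and 6. At day 1, 6 of the 10 were at least 2-fold lower and 0 higher, against 6.35% and 5.71% of all genes. Their median log2 change was -1.45. The 10 summed to 219029 units in control and 105212, 159331 and 199650 on days 1, 3 and 6.

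Mmp13, Mmp12, Mmp3 and Mmp8 lie in one array of 10 neighbouring metalloproteinase genes on chromosome 9 of the GRCm38.p6 assembly. The stretches before the annotated starts of these neighbours are shown because the genes sit side by side and did not all read alike. Mmp3 and Mmp8 were above the floor at day 1 alone, Mmp12 was highest at day 6, and Mmp13 was below the floor throughout. The stretch of Timp1, the inhibitor that rose most, is given for comparison. Each line gives 230 bases up to the base before the start, from RefSeq, read 5′ to 3′. Mmp12 has 2 annotated starts, and only the stretch before the second is shown. Capitals mark matches on either strand to TGANTCA, which AP-1 factors bind, and to TTGCNNAA, a core of C/EBP sites.
Mmp13, chr9:7272284-7272513, + strand: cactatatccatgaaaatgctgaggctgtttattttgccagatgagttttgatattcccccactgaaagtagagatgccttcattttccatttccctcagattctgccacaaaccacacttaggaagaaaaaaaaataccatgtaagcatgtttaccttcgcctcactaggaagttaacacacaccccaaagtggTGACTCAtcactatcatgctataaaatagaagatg
Mmp12, chr9:7347144-7347373, + strand: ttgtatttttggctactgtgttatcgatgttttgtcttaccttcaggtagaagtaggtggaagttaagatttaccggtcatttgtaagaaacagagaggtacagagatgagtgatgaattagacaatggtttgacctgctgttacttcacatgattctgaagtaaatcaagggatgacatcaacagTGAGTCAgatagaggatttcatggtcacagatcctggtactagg
Mmp3, chr9:7445592-7445821, + strand: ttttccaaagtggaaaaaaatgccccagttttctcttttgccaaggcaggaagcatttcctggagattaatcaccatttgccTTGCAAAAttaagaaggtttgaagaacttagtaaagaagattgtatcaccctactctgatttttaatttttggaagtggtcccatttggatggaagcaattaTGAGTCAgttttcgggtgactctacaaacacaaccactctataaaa
Mmp8, chr9:7558199-7558428, + strand: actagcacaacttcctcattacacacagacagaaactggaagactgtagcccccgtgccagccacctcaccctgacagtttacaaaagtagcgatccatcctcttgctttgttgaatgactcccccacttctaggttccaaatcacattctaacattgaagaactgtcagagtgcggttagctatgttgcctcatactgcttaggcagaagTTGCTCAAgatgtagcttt
Timp1, chrX:20869936-20870165, + strand: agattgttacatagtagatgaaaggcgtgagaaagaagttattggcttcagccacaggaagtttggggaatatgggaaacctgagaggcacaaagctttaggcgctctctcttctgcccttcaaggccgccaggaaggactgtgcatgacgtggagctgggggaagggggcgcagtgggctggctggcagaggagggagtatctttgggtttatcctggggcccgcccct

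The AP-1 letters were present in Mmp13 and Mmp3 and before the second of the 2 annotated starts of Mmp12, in each case within 50 bases of the start. The C/EBP letters were present in Mmp3 and Mmp8, before the first start of Mmp12, and in Adam8. Windows of 300 bases, from 250 before to 50 after the start, were found for 8 members; Mmp2 and Mmp9 had none. In them TGANTCA matched 3 of 8 members, TTGCNNAA 4 and TATAAA, the letters of a TATA box core, 4, all 4 of the last on chromosome 9. Over 32851 promoter windows of the same length these words matched 7.81%, 10.8% and 13.6%. These shares are over single windows, while Mmp12, with 2 windows, was counted where either matched. A stricter and a looser NF-kB word, the first contained in the second, both strands read, matched 0 of 8 members and 1.63% and 5.56% of all windows. Counted from the start, the TATAAA matches covered bases -16 to -11 in Mmp13 and -7 to -2 in Mmp3. In Mmp8 the match was on the opposite strand and spanned the start, at -3 to 3. In Mmp12 it lay after the second start, at 5 to 10. Whether any of them acts as a TATA box was not tested. A match is a description of letters, and binding was not measured here.

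At day 1, Mmp8, Mmp9, Adam8 and Timp1 were at least 2-fold above control, and no member was as far below it. By day 3, Adam8 and Timp1 were still higher, while Mmp8 and Mmp9 were below the floor. At day 6 Mmp12 and Adam8 were higher. The time courses were an early peak of Mmp8 and Mmp9, a longer rise of Adam8 and Timp1 and a late rise of Mmp12. Of the other 5 genes, Mmp14 and Timp3 were within 2-fold of control on every treated day. Mmp3 had a bound under 2-fold at day 1, and Mmp2 and Mmp13 read below the floor throughout.

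The share of all genes past 2-fold gives the background for these counts. At day 1, 4 of 10 members were higher, against 5.71% of 8251 genes, and 0 were lower, against 6.35%. At day 3, 2 were higher (2.88% of all genes) and 1, Mmp9, lower (2.47%). At day 6, Mmp12 and Adam8 were higher (1.31%) and Mmp9 lower (1.24%). From day 1 to day 3, 0 members were higher (4.41%) and 3, Mmp8, Mmp9 and Timp1, lower (4.79%). From day 3 to day 6, Mmp12 was higher (1.14%) and Adam8 and Timp1 lower (2.01%). The members' median log2 changes from control were 0.70, 0.00 and 0.07 on days 1, 3 and 6, and those of all genes were 0.00 each time. Because the members were chosen with these changes known, nothing is read from the counts. The 3 comparisons with control share the control array.

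**Figure D1:**
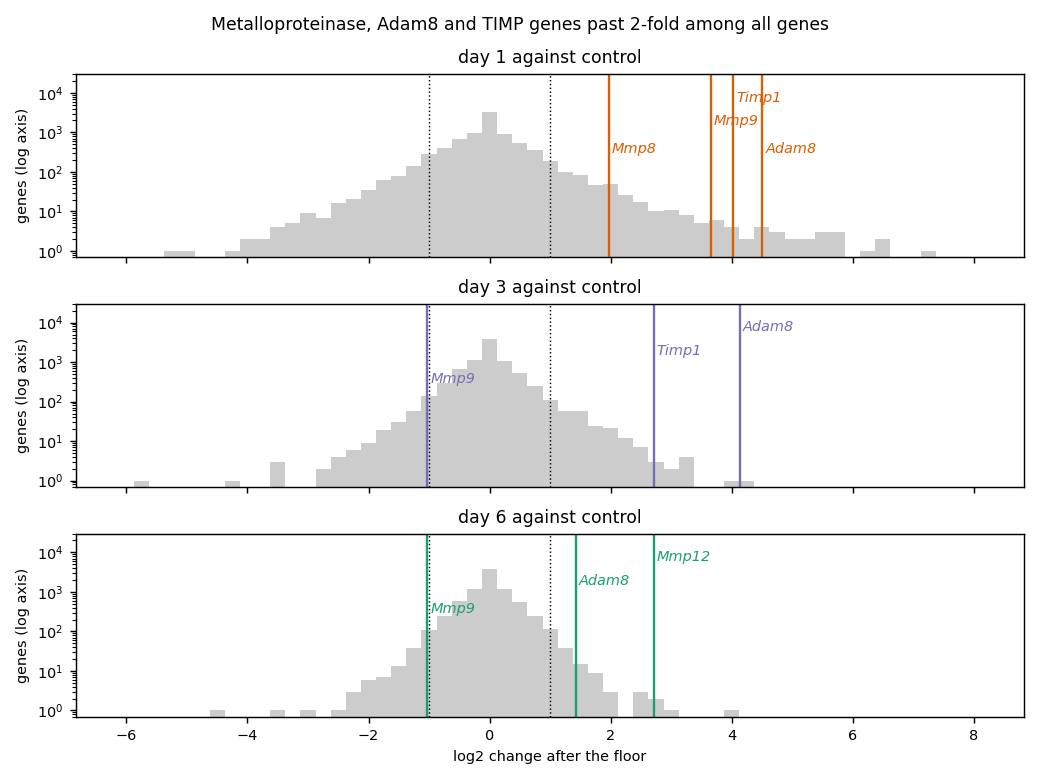
Number of genes (log axis) by log2 change from control after the floor, in bins of 0.25, for days 1, 3 and 6 and all 8251 genes. Coloured lines are the members past 2-fold and dotted lines mark 2-fold. On day 6 Mmp12, at 2.71, lies at the upper edge of a distribution that is narrower than on day 1.

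**Figure D2:**
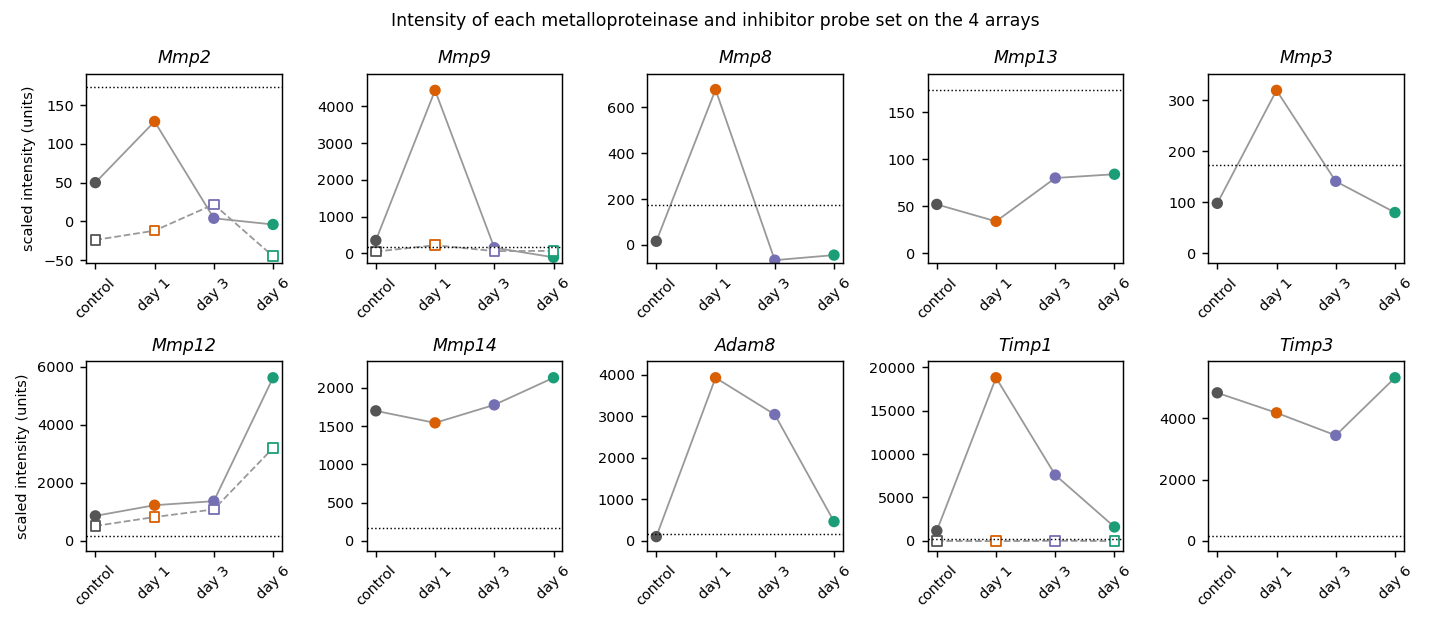
Scaled intensity in units (linear axis, a separate range for each gene) on the control, day 1, day 3 and day 6 arrays, 1 array each. Filled circles are the probe set used for the gene, open squares its other probe set, and the dotted line the floor at 173. Mmp9 peaks at 4438 and Timp1 at 18815 on day 1, and Mmp12 at 5620 on day 6.

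Mmp9, or gelatinase B, cuts denatured collagen and basement membrane collagen and is stored in neutrophil granules. It read 353 in control, 4438 at day 1, 155 at day 3 and -106 at day 6. Day 1 stood alone above the rest, and the last pair of arrays was below the floor. The rise at day 1 was 12.6-fold, a log2 change of 3.65, and the day 3 value was at least 25.7-fold below day 1. Against control, days 3 and 6 were each at least 2.04-fold lower. Those falls are bounds just past 2-fold. Neither passed when the floor was raised to the 60th percentile. The other Mmp9 probe set, whose suffix _f_at marks a sequence family, read 50, 222, 63 and 70. It was above the floor at day 1 alone, at least 1.28-fold over control. As it was below the floor in control, it gives no measure of the falls at days 3 and 6. With the mean over both probe sets the day 1 log2 change was 2.005 and the falls did not pass.

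Mmp8, the neutrophil collagenase, cuts fibrillar collagens. It read 16 in control, 676 at day 1, -66 at day 3 and -44 at day 6. Only the day 1 array was above the floor, and the change from control was at least 3.91-fold there. Its log2 change of 1.97 became 0.33 when the floor was set at the 60th percentile, so this call rests on a signal not far above the floor. With the floor at the 25th percentile it was 3.54, and with an offset of 100 units in place of a floor 2.74.

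Some neutrophil markers were also highest at day 1. The 11 measured genes of the list summed to 7954 units in control, 82597 at day 1, 9372 at day 3 and 4813 at day 6, with 4 higher and 2 lower past 2-fold at day 1 and a median log2 change of 0.00 over the 11. Of all genes, 5.71% were higher and 6.35% lower at day 1. S100a8 and S100a9 gave 81.2% of the day 1 sum. Without them, a sum added after the values were seen, the other 9 came to 7421, 15565, 7337 and 4157 units. The markers named here were picked after their values were seen. S100a8 read 414, 40305, 1494 and 643 and the chemokine receptor gene Cxcr2 124, 1494, 59 and 98, both highest at day 1. Mpo and Ngp, which encode granule proteins made by immature neutrophils, were at or below the floor on all 4 arrays. Prtn3, a granule protease gene, went from 756 to 164 at day 1, and Elane from 593 to 292. In pooled tissue, more cells of a type and more RNA per cell cannot be told apart, and the part of neutrophils in the values of Mmp8 and Mmp9 was not tested.

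Timp1, a secreted inhibitor of most metalloproteinases, read 1160 in control, 18815 at day 1, 7591 at day 3 and 1597 at day 6. The day 1 value was 16.2-fold and the day 3 value 6.55-fold above control, and day 6 was 1.38-fold above it. It fell 2.48-fold from day 1 to day 3 (a log2 change of -1.31, or -0.65 and no longer past 2-fold with the mean over both probe sets) and 4.75-fold from day 3 to day 6. The time course went back towards the control level without passing below it. The other Timp1 probe set, marked _r_at for relaxed probe selection, was below the floor on every array, at -16, -45, 7 and -34, and gives no measurement of the change.

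Adam8 read 101 in control, 3932 at day 1, 3045 at day 3 and 464 at day 6. Control was below the floor, and each treated array was above it. The changes were at least 22.7-fold, 17.6-fold and 2.68-fold on days 1, 3 and 6. Between days 1 and 3 Adam8 differed by 1.29-fold, while Timp1 had already lost more than 2-fold. From day 3 to day 6 it fell 6.56-fold. The day 6 rise was lost with the floor at the 60th percentile, where both arrays were at the floor.

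Mmp12, the macrophage metalloelastase, cuts elastin. By its brighter probe set it read 859 in control, 1227 at day 1, 1366 at day 3 and 5620 at day 6. The first 3 arrays lay within 2-fold of each other and day 6 stood above them, 6.54-fold over control and 4.11-fold over day 3. Its other probe set, built on the same transcript, read 512, 819, 1082 and 3197. There the change from control was 1.60-fold, 2.11-fold and 6.24-fold, so the pair agreed on the rise at day 6 and lay on different sides of 2-fold at day 3. Both carry suffixes (_s_at and _r_at) that mark probes which can match more than 1 transcript or were chosen with relaxed rules.

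**Figure D3:**
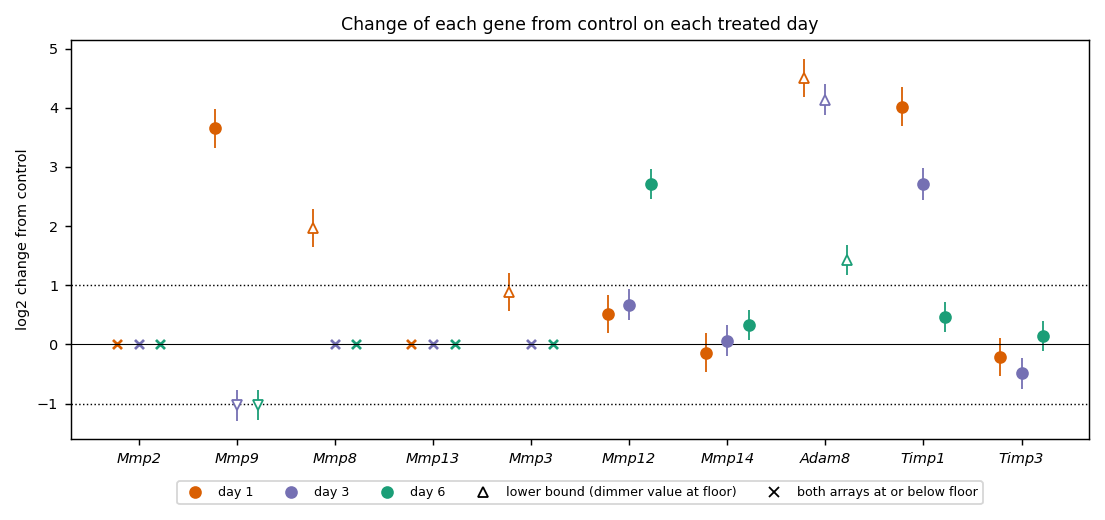
Log2 change from control of each gene on days 1, 3 and 6, after the floor, with bars of 1 error from pairs of probe sets (0.32, 0.26 and 0.25) and dotted lines at 2-fold. Open triangles are bounds where the dimmer array was at the floor, crosses mark both arrays at or below it. The bars on open triangles do not measure the uncertainty of a bound. Timp1 descends from 4.02 to 0.46 while Mmp12 reaches 2.71 on day 6.

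The summed macrophage markers and Mmp12 were highest on different arrays. The 18 measured macrophage and monocyte markers summed to 57464 units in control, 130223 at day 1, 131504 at day 3 and 66608 at day 6. Past 2-fold upward were 9 at day 1, 10 at day 3 and 1 at day 6, with medians of 1.14, 1.12 and 0.25 on the log2 scale. Among all genes 5.71%, 2.88% and 1.31% were higher on those days. The 1 marker still higher at day 6 was Mpeg1, a macrophage perforin gene, at 4219 against 1661. Mmp12 was highest at day 6, where the sum was the lowest among the treated arrays. Timp1 and Adam8 were highest on the arrays on which the macrophage sum was also high. The part of macrophages in the values of Mmp12, Timp1 and Adam8 was not tested.

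**Figure D4:**
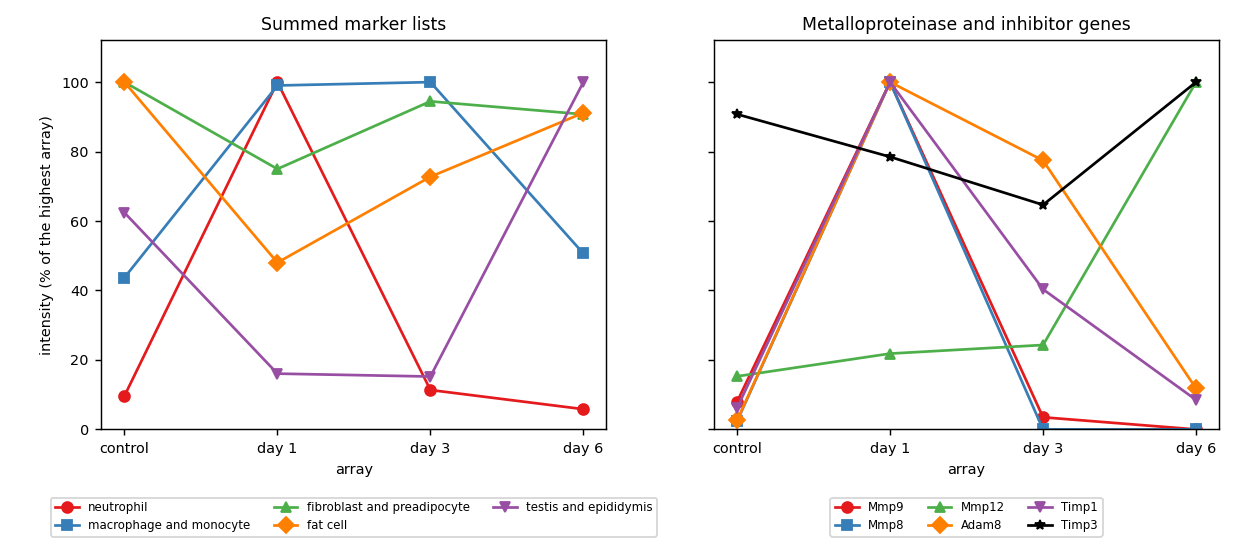
Left, summed intensity of 5 marker lists, and right, intensity of 6 genes, on the 4 arrays, each line as a percent of its own highest array, with negative intensities drawn at 0. The neutrophil sum, mostly S100a8 and S100a9 at day 1, is highest there at 82597, as Mmp8 and Mmp9 are, while the median change of its 11 markers is 0.00, and Mmp12 peaks at 5620 on day 6, when the macrophage sum is 66608.

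Mmp14, a membrane-bound metalloproteinase that activates pro-MMP2, read 1699, 1542, 1777 and 2132, with log2 changes between -0.14 and 0.33. Timp3, the inhibitor that binds to the matrix itself, read 4837, 4183, 3446 and 5330. Its largest change from control was -0.49 at day 3, under 2 errors, and it stood 1.55-fold higher at day 6 than at day 3. Timp3 was lowest on the day 3 array and Timp1 was highest on day 1.

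Mmp3, or stromelysin 1, which cuts many matrix proteins and activates other metalloproteinases, was above the floor on 1 array. It read 98 in control, 319 at day 1, 141 at day 3 and 80 at day 6, a change of at least 1.84-fold at day 1. Its control value lay below the floor, so the bound does not place it within 2-fold. It passed at day 1 with the floor at the 25th percentile (log2 change 1.70) and with the offset of 100 units (1.08). Mmp13, an interstitial collagenase, was below the floor throughout, at 52, 34, 80 and 84. Mmp2, or gelatinase A, was also below it, with readings of 50, 129, 4 and -4 from its brighter probe set and -24, -12, 22 and -45 from the other. Mmp2 had a day 1 log2 change of 1.15 with the lower floor. For Mmp2 and Mmp13 no change was measured above the main floor, which does not show that their RNA was absent.

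The neighbours on chromosome 9 that were above the floor somewhere did not all share a time course. In chromosomal order the 6 measured genes of the 10 were Mmp13, Mmp12, Mmp3, Mmp10, Mmp8 and Mmp7. Mmp13 and Mmp10 (stromelysin 2) were below the floor on all arrays, Mmp8 and Mmp3 were above it at day 1 alone, and Mmp12 was highest at day 6. Mmp7, or matrilysin, an epithelial metalloproteinase, read 545 in control, 1466 at day 1, 1310 at day 3 and 1221 at day 6, which was 2.69-fold, 2.40-fold and 2.24-fold higher. The stretches shown above hold the AP-1 letters in Mmp13, below the floor on each array, and in Mmp3 and Mmp12, whose highest arrays were day 1 and day 6.

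Other genes of the system were taken from lists chosen with earlier results of these data known. Of 6 other metalloproteinases measured, Mmp7 was higher on each treated day and 4 were at or below the floor on every array. Among all genes 5.71%, 2.88% and 1.31% were higher on days 1, 3 and 6. Of 16 other ADAM and ADAMTS genes, 1 was lower at day 1 (6.35% of all genes). At day 3, 1 was higher (2.88%) and 2 were lower (2.47%), and at day 6, 1 was higher (1.31%). The higher one was Adam12, a protease of mesenchymal cells, which read 98, 116, 421 and 384 and was at least 2.43-fold above control at day 3. Adam28 went from 604 to 301 at day 3, just past 2-fold.

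Adam7, an ADAM gene of the epididymis, read 2654 in control, 200 at day 1, 251 at day 3 and 1846 at day 6. Lcn5, an epididymal lipocalin gene named after its values were seen, read 3321, 63, 7 and 8029. The control and day 6 pools were thus high and the other pair low for both. The 7 measured testis and epididymis markers summed to 7641, 1966, 1864 and 12242 units, and Prm2 and Ldhc were at or below the floor on all arrays. Both this sum and Mmp12 were highest on day 6. In control the sum was 7641 and Mmp12 read 859. The part of such tissue in the members' values was not tested.

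Among 7 other inhibitor genes measured, Timp2, Reck and Tfpi2 passed 2-fold at day 1, the first 2 downward. Of all genes, 6.35% were lower and 5.71% higher on that day. Timp2, which inhibits MMP2 and takes part in its activation, read 2049, 726, 1664 and 1418 by its brightest probe set, a 2.82-fold fall at day 1. Its other probe sets were below the floor on every array. Reck, a membrane-anchored inhibitor, read 386, 103, 238 and 259 and was at least 2.23-fold lower. Tfpi2, a secreted serine protease inhibitor, read 73, 511, 231 and 84, at least 2.95-fold higher at day 1. Timp1 was therefore at its highest on the array where Timp2 and Reck were at their lowest. By days 3 and 6, 0 of the 7 were past 2-fold in either direction, when 94.6% and 97.5% of all genes were within 2-fold.

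Of 26 matrix genes measured that metalloproteinases can cut, 2 were higher and 3 lower at day 1, against 5.71% and 6.35% of all genes. At days 3 and 6, 0 passed 2-fold, when 94.6% and 97.5% of all genes were within 2-fold. The median log2 changes over the 26 were -0.10, -0.04 and -0.20 on days 1, 3 and 6. Vcan, which encodes the proteoglycan versican, read 58, 2403, 152 and 57, at least 13.9-fold higher at day 1. The laminin gene Lama2 read 930, 264, 478 and 944, a 3.53-fold fall. Fn1, the fibronectin gene, named outside the naming rule, was the other one higher, at 5858, 12861, 5643 and 3390. The nidogens, which link basement membrane networks, fell as well, Nid2 from 2122 to 446 and Nid1 from 1256 to 516. Fibrillar collagen genes were within 2-fold of control, Col1a1 at 6736, 6516, 8900 and 6374. The 14 fibroblast and preadipocyte markers, of which Col1a1, Col1a2, Col3a1 and Dcn stand on the matrix list too, summed to 73904, 55419, 69808 and 67050 units, with 1 higher and 4 lower at day 1.

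Of 21 measured genes that induce or activate metalloproteinases, 9 were higher and 0 lower at day 1, when 5.71% of all genes were higher, and the other 12 did not pass 2-fold. At day 3, 5 were higher (2.88% of all genes) and 1 lower (2.47%), and at day 6 none passed in either direction. The median log2 changes over the 21 were 0.69, 0.00 and 0.00. Il1b, a cytokine that induces several metalloproteinases, read 36, 13108, 121 and 8, at least 75.8-fold higher at day 1, and Il6 25, 2377, 16 and -13. The AP-1 subunit genes Junb and Fosl1 read 302, 4454, 632 and 110, and -21, 1539, -28 and -48. Each was highest at day 1, as were Mmp8, Mmp9, Timp1 and Adam8. Any effect of these genes on the members was not tested. The AP-1 letters were not found in the windows of Mmp8, Timp1 or Adam8, and Mmp9 had no window. Of the other AP-1 subunit genes on the list, Fos and Jun were higher at day 1. Fosb, at 648, 707, 585 and 592, was not. Outside the naming rule, Plaur, the urokinase receptor gene, read 130, 1131, 456 and 92, and Tgfb1 670, 1338, 1804 and 650. These were higher at day 3 with Junb, Fos and Spi1, and Jun was lower, at 215 against 466 in control. The other Junb probe set read 362, 2400, 442 and 238 and did not pass 2-fold at day 3.

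The genes closest to each member in their 3 changes from control were found among those whose highest value was at least 2 times the floor. Closeness is the Euclidean distance on the log2 scale, over 3 changes that share 1 control array. For Timp1 they were Itgam (0.56), Sema4d (0.86) and Lilr4b (0.89). For Adam8 they were Saa3 (0.98), Ucp1 (1.74) and Timp1 itself (1.79). Adam8 and Ucp1 were below the floor in control, so their changes are bounds and these distances depend on the floor. For Mmp9 the nearest, Il6, Vcan and Ccl4, were at distances of 1.46, 1.46 and 1.47, and each was at or below the floor in control, which Mmp9 was not. For Mmp12 they were Rgs2 (1.26), Ephx2 (1.26) and Irf4 (1.32), each with a smaller rise at day 6. Mmp8 had Csf2rb, Has1 and Uap1 at 0.02 to 0.08, all at or below the floor on the other arrays. Mmp14 had Ss18l2, Myrf and Atxn7l3 at 0.03 to 0.05, and Timp3 had Ggt5, Fam114a2 and Foxk2 at 0.07 to 0.12, all within 2-fold of control throughout.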

How the data were processed

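Expression was measured on 4 Affymetrix mouse arrays, 1 per group. The authors deposited 1 linear intensity per probe set and array, of which 12.1% to 12.4% per array are at or below 0. No software or normalization is named (not given in the sources used here), and the arrays already shared a distribution (medians 314 to 314.5). Of 12488 probe sets, 66 controls were kept in the scaling and the floor and left out of the genes. Of the 12422 others, 10833 had 1 gene symbol in the array's annotation (396 had several and 1193 none). Arrays were scaled to the same mean of the values lying between the 2nd and 98th percentiles (factors 0.999 to 1.001), floored at the 40th percentile (173) and put on the log2 scale. A gene was represented by its probe set with the highest mean, and no test was run.

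The members and lists were chosen with earlier results of these data known. Named genes were all members, at most 4 genes of each list, those that changed most past 2-fold, and the 3 nearest in pattern to each member that reached 2 times the floor. Promoters came from RefSeq (GRCm38.p6). The fold calculation was tested on simulated data, with known changes given only to probe sets above 4 times the floor. Upward changes were checked for size and downward ones for direction alone, so the size of bounds set by the floor was not checked. Alternatives were other floors, an offset, quantile normalization, unscaled values, the mean over probe sets and a 3-fold threshold. Python 3.11.15, numpy 2.4.6 and pandas 2.3.3 were used.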

Additional observations from a re-analysis of the deposited data

Results flagged for a closer look

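Mmp9 moved in opposite directions past 2-fold on different treated days. Its log2 change from control was 3.65 at day 1, and -1.03 at day 3 and -1.03 at day 6, the later values being bounds because both arrays were at the floor. The difference between days was not tested, since each day is 1 array and all share the control.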

How the results depend on the processing

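Quantile normalization and the deposited values as they are left each of the 10 counts of members past 2-fold within 1.5 times its main value. With the floor at the 25th percentile, 6 members in place of 4 were higher at day 1 than in control and 5 in place of 3 lower at day 3 than at day 1 (Mmp2 and Mmp3 added each time). The offset of 100 units gave 5 (Mmp3 added) and 4 (Mmp2 added), and the floor at the 60th percentile 3 and 2 (Mmp8 lost). With the floor at the 60th percentile, 0 in place of 1 were lower than control at day 3 and 0 in place of 1 at day 6, and 1 in place of 2 was higher at day 6, as Adam8 and Mmp9 then had both values at the floor. With an offset of 100 units in place of a floor, 0 were lower at day 3. With the mean over all probe sets, 0 were lower at day 3 and 0 at day 6, and Timp1 changed by 2.01 on the log2 scale at day 1 in place of 4.02, since its second probe set was at the floor. In that setting Mmp9 changed by 2.005 at day 1 in place of 3.65, and Timp1 by -0.65 in place of -1.31 from day 1 to day 3, which left 2 members lower there in place of 3. With a 3-fold threshold, 2 were lower at day 3 than at day 1, 0 were lower than control at days 3 and 6 and 1, Mmp12, was higher at day 6. Of the members' log2 changes, 0 that had passed 2-fold turned sign under these alternatives. Signal limits Mmp2, Mmp3, Mmp8 and Mmp13, which were near or below the floor. No paired analysis was possible because each group has 1 array, and leaving out an array leaves no comparison with that group.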
